A study of Mus musculus with 6 samples.

Results

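The 10 genes described here carry glucose into the cell and break it down to lactate: the glucose transporter gene Slc2a1, the hexokinase genes Hk1 and Hk2, the phosphofructokinase genes Pfkl, Pfkp and Pfkfb3, and Aldoa, Pgk1, Pkm and Ldha. They were taken by symbol from the 43346 genes of the count table, and all 10 passed the filter on low counts that left 14000 genes for testing. The cells were primary mouse embryonic fibroblasts (MEFs) of strain C57BL/6 at passage 9, connective-tissue cells taken from embryos that divide only for a limited time in culture. One group of 3 libraries came from cells given 3 µM erastin and harvested 24 h later; the other 3 are labelled DMSO, the usual solvent of erastin, with no duration given for them. Both groups grew in the same serum-containing medium with 2-mercaptoethanol, a reducing agent. Erastin blocks the cystine/glutamate antiporter and is used to start ferroptosis, a cell death driven by lipid peroxidation. The comparison addresses which transcripts differ under that treatment. The labels name no separate embryo preparation for each library, so p-values measure the spread between these libraries, which may be technical. Means are given ± SD over the 3 libraries of a group (n = 3).

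Glucose enters most cells through facilitative transporters of the SLC2 (GLUT) family, and GLUT1, the Slc2a1 product, is the common one of fibroblasts. Hexokinase traps glucose as glucose 6-phosphate, and phosphofructokinase-1 makes the committed step of glycolysis. Its strongest activator, fructose 2,6-bisphosphate, is made by the PFK-2/FBPase-2 enzymes, of which the Pfkfb3 product favours synthesis. Aldolase, phosphoglycerate kinase and pyruvate kinase carry the carbon on to pyruvate with a gain of ATP, and lactate dehydrogenase A turns pyruvate into lactate while restoring NAD+. Cultured fibroblasts make much lactate even in oxygen.

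Total counts ran from 13333911 to 20509970 per library, and the 10 genes took 0.252% to 0.321% of them. The chi-square per degree of freedom was 11.0 to 19.2 between libraries of 1 group and 78.0 to 123 between groups, so no library repeated another within sampling noise. The cells carried the markers of fibroblasts at high levels, with 36980.2 to 40236 summed CPM (counts scaled to a common library size with TMM factors) for 12 markers in DMSO and 26756 to 28362 with erastin; 10 of the 12 were lower with erastin and 0 higher (0 higher also with DESeq2 and at an unadjusted edgeR p under 0.05). The 6 endothelial markers summed to 5.43 to 8.84 CPM in DMSO and 15.7 to 19.0 CPM with erastin, with Kdr and Tek higher and the defining Pecam1 and Cdh5 at no more than 15 reads in a library. The 7 leukocyte markers summed to 26.1 to 46.1 and 29.7 to 60.8 CPM, and 0 passed with edgeR or DESeq2 (2 at an unadjusted edgeR p under 0.05, Cd68 and Lyz2, both higher). The 7 skeletal muscle markers summed to 86.9 to 107 CPM in DMSO and 82.1 to 90.6 with erastin, with Acta1 lower (-1.58 on the log2 scale), Des higher (0.72) and Myod1 and Myog at no more than 9 reads in a library. The 6 neural markers summed to 72.6 to 101 CPM in DMSO and 54.7 to 61.4 with erastin, with Tubb3 lower (-0.74) and Syp and Gfap at no more than 11 reads. The 7 epithelial markers summed to 2.18 to 3.25 CPM in DMSO and 2.18 to 3.65 with erastin, and 0 passed with edgeR or DESeq2 or at an unadjusted edgeR p under 0.05. At an edgeR adjusted p under 0.05, 21.6% of all genes tested were higher and 21.5% lower. The part of these markers in the results was not tested. In bulk RNA, fewer cells of a type and less RNA per cell cannot be told apart.

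With erastin, a transporter gene, a hexokinase gene and the gene of a phosphofructokinase activator rose strongly, and the gene of lactate dehydrogenase A fell. Slc2a1, Hk2 and Pfkfb3 rose 3.75-, 3.23- and 3.94-fold, and Ldha fell to 0.683 of its DMSO level. In all, 4 of the 10 genes were higher and 2 lower by edgeR's quasi-likelihood test with a Benjamini-Hochberg threshold of 0.05 over all genes tested, against 43.1% of all genes tested in either direction, 21.6% higher and 21.5% lower. The count of 6 in 10 is not far above that background. The split moved with scaling, to 5 higher and 1 lower by total count only (Hk1 gained, edgeR adjusted p = 0.0401, and Pkm lost) and to 3 and 3 with upper-quartile factors (Pfkp lost and Pgk1 gained). The 2 further calls, Pfkp up and Pkm down, were small and passed in only 4 and 4 of the 15 other ways of processing that were run. A call as higher with a log2 fold change of at least 1, as for Slc2a1, Hk2 and Pfkfb3, was made for 4.99% of all genes tested. The groups did not overlap in 6 of the 10 genes, 4 with erastin higher and 2 with erastin lower; of all genes tested this held for 52.5%, 26.7% higher and 25.8% lower. The median log2 fold change of the 10 genes was 0.057, beside -0.0014 over all genes tested; it was -0.018 without erastin replicate 2 and 0.16 without erastin replicate 3.

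**Figure D1:**
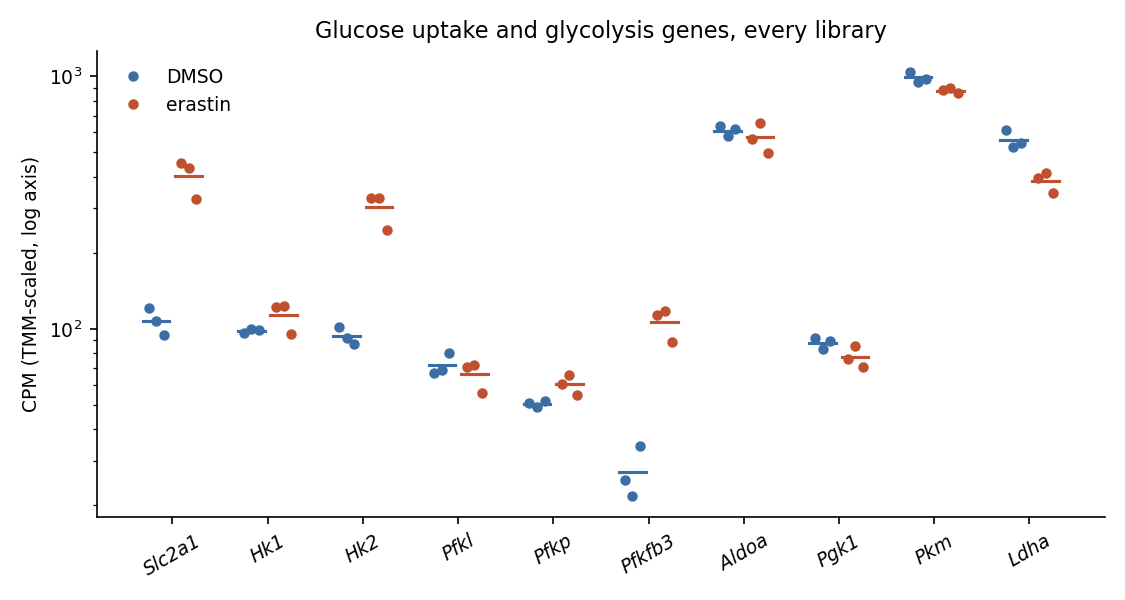
Expression level of each of the 10 genes in every library (points; CPM on a log axis), with DMSO in blue, erastin in red and the group mean as a bar (n = 3 each). The erastin points of Slc2a1, Hk2 and Pfkfb3 lie well above those of DMSO, those of Ldha lie below, and the groups of Hk1, Pfkl, Aldoa and Pgk1 overlap.

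The promoter stretches of 5 of these genes are shown because they hold matches to short elements of known regulators of glycolysis genes. Such matches lie in genes that rose as well as in genes that did not. Hypoxia-inducible factors (HIF) bind a core of ACGTG or GCGTG, and MYC and carbohydrate-response factors bind CACGTG, which contains ACGTG. All 10 genes had an entry in the RefSeq promoter table (build GRCm38.p6; 250 bases before to 50 after each start), with 16 windows in all. On either strand, 13 of the 16 windows held ACGTG or GCGTG, against 43.8% of all windows of that length. ACGTG alone was in 10 of 16 (all windows 19.6%), GCGTG in 7 of 16 (all windows 32.4%) and CACGTG in 2 of 16 (all windows 7.15%). Windows of 1 gene can overlap, and the windows were not tested as a set. Below, the bases upstream of the start that lie in no annotated exon of the gene are written 5′ to 3′ in the direction of transcription. Capitals mark every match, and a match on the other strand reads CACGT or CACGC. The stretches of Pfkfb3 and Ldha lie before a start inside the annotated gene, those of the others before its outer end. The stretches are those of Slc2a1 (chr4:119108495-119108710 on the plus strand), Hk2 (chr6:82774455-82774704 on the minus strand) and Pfkfb3 (chr2:11502102-11502340 on the minus strand), which rose, and of Pgk1 (chrX:106186850-106187099 on the plus strand) and Ldha (chr7:46845554-46845803 on the plus strand), which did not.
Slc2a1: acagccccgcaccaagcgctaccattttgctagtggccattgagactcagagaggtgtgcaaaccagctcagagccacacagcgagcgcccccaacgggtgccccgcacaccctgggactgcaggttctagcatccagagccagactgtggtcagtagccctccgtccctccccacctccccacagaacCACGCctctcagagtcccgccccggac
Hk2: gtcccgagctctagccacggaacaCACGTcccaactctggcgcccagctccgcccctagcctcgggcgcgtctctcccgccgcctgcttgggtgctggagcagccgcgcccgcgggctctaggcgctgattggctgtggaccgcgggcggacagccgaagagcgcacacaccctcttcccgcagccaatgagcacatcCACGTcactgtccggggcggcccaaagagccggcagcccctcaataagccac
Pfkfb3: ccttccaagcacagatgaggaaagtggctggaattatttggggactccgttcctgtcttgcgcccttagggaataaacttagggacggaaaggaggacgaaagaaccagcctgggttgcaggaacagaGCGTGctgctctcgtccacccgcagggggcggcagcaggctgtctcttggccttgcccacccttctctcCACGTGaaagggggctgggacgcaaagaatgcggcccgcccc
Pgk1: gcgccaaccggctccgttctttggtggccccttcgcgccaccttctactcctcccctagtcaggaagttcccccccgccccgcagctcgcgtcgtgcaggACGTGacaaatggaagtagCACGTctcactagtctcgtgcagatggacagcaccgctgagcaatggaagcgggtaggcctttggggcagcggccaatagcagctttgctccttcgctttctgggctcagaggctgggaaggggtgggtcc
Ldha: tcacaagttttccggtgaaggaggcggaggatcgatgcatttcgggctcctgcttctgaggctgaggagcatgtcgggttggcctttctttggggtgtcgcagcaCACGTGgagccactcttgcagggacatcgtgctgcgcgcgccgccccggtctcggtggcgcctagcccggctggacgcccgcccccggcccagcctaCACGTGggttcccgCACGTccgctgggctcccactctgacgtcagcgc
The stretch of Slc2a1 held 1 GCGTG, and those of Hk2 and Pgk1 held 2 ACGTG each. That of Pfkfb3 held 1 GCGTG and 2 strand matches of ACGTG, both in 1 copy of CACGTG. That of Ldha, the gene that fell, held 5 strand matches of ACGTG, 4 of them in 2 copies of CACGTG, which reads the same on both strands. A match is a run of letters and no measure of binding, and each of the 10 genes had ACGTG or GCGTG in at least 1 window. Another stretch of Pfkfb3, before its outer end (chr2:11554078-11554179 on the minus strand), is not shown. That stretch held 0 ACGTG, 0 GCGTG and 0 CACGTG, and its whole window held 1 ACGTG. A second stretch of Ldha (chr7:46846832-46847081 on the plus strand), also not shown, held 0 ACGTG, 1 GCGTG and 0 CACGTG.

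The glucose uptake gene Slc2a1 was the first in pathway order with a large difference in transcript level. Slc2a1 (ENSMUSG00000028645.6, chr4:119108711-119137983 in GRCm38) stood at 121, 108 and 94.7 CPM in the DMSO libraries (replicates 1 to 3) and at 452, 432 and 328 CPM in the erastin libraries. All erastin libraries lay above all DMSO libraries, with replicate 3 the lowest of its group in both. The log2 fold change was 1.91 (SE 0.11, edgeR adjusted p = 1.45e-08), a rise of 3.75-fold with a 95% interval of 3.16 to 4.43. Of the 13 other transporter genes 8 were tested, 0 were higher and 2 lower (DESeq2 gave 0 and 2, and at an unadjusted edgeR p under 0.05 there were 1 higher, Slc2a3, and 3 lower, with Slc2a10 added). Among all genes tested, the edgeR calls were 21.6% higher and 21.5% lower. Slc2a3, the gene of the high-affinity transporter GLUT3, was at 8.55 ± 0.818 CPM with DMSO against 12.1 ± 1.90 CPM with erastin (a log2 fold change of 0.50, edgeR adjusted p = 0.0537), just outside the threshold. Slc2a9, a urate transporter, fell from 7.55 ± 1.10 CPM with DMSO to 3.74 ± 0.525 CPM (edgeR adjusted p = 0.00644), and Slc2a13, a proton-coupled inositol transporter, from 15.1 ± 1.70 CPM with DMSO to 10.6 ± 1.20 CPM (edgeR adjusted p = 0.0293). Per kilobase of merged exons, the share of Slc2a1 in the summed counts of 9 SLC2 genes (with the untested Slc2a2 and without Slc2a13) went from 66.2% ± 1.81 to 89.0% ± 1.32.

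Of the hexokinases, the inducible Hk2 rose and the constitutive Hk1 did not pass. Hk2 (ENSMUSG00000000628.6, chr6:82725025-82774454) stood at 102, 91.9 and 87.3 CPM in the DMSO libraries (replicates 1 to 3) and at 331, 330.5 and 247 CPM in the erastin libraries. The groups did not overlap, and the log2 fold change was 1.69 (SE 0.11, edgeR adjusted p = 2.12e-08; fold 3.23, 95% interval 2.76 to 3.78). Hk1 (ENSMUSG00000037012.14, chr10:62268855-62379908) stood at 96.3, 100.1 and 99.1 CPM in the DMSO libraries (replicates 1 to 3) and at 122, 123 and 95.5 CPM in the erastin libraries. Erastin replicates 1 and 2 lay above the DMSO range and replicate 3 just below it, and the log2 fold change of 0.21 (95% interval -0.0051 to 0.42) had an edgeR adjusted p of 0.108. Without erastin replicate 3 it was 0.32 and passed (edgeR adjusted p = 0.00729). After a correction for GC content and transcript length it passed as well (0.26, edgeR adjusted p = 0.0304).

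The ratio of the paralogs within a library does not depend on how libraries are scaled. Hk2 counts divided by Hk1 counts gave 1.06, 0.918 and 0.881 in the DMSO libraries and 2.71, 2.69 and 2.59 in the erastin libraries, replicates 1 to 3 each. The ratio rose by 2.80-fold without overlap of the groups (exact two-sided permutation p = 0.1, the smallest that 3 against 3 libraries can give). Per kilobase of merged exons the Hk2 share of Hk1 and Hk2 went from 57.6% ± 2.36 to 79.2% ± 0.404 (SD, n = 3). With the longest transcript as length, Hk2 was the smaller part of the hexokinase sum in DMSO (42.2%) and the larger part with erastin (67.0%), so which paralog led in DMSO depends on the gene length used. Hk3 was tested at 0.663 ± 0.695 CPM with DMSO against 0.999 ± 0.656 CPM with erastin (edgeR adjusted p = 0.666). Hkdc1 had at most 11 reads in a library and was not tested.

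At the phosphofructokinase step, the gene of the activating enzyme Pfkfb3 rose relative to that of the catalytic subunit Pfkl: the ratio of their counts within a library, chosen after the values were seen, was 0.375, 0.319 and 0.429 in the DMSO libraries and 1.61, 1.63 and 1.59 in the erastin libraries, replicates 1 to 3 each (exact two-sided permutation p = 0.1, the smallest possible). Pfkfb3 (ENSMUSG00000026773.15, chr2:11471433-11554077) stood at 25.2, 21.8 and 34.5 CPM in the DMSO libraries (replicates 1 to 3) and at 114, 117 and 89.0 CPM in the erastin libraries. The groups were far apart, although DMSO replicate 3 stood above the other DMSO libraries. The log2 fold change was 1.98 (SE 0.15, edgeR adjusted p = 1.07e-07; fold 3.94, 95% interval 3.17 to 4.90). None of its 3 paralogs passed as higher. Pfkfb1 fell from 2.06 ± 0.510 CPM with DMSO to 0.536 ± 0.201 CPM (edgeR adjusted p = 0.0132). Pfkfb2 stood at 6.56 ± 1.51 CPM with DMSO against 7.64 ± 1.19 CPM with erastin and Pfkfb4 at 14.4 ± 2.53 CPM with DMSO against 17.3 ± 4.04 CPM with erastin (edgeR adjusted p = 0.501 and 0.288), and neither passed. The Pfkfb3 share of the 4 genes, per kilobase of merged exons, went from 45.0% ± 1.27 to 75.0% ± 1.54 (SD, n = 3).

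Of the 3 genes of phosphofructokinase-1 subunits, 1 passed as higher, 1 as lower and 1 did not pass. Pfkl, the liver-type subunit (ENSMUSG00000020277.9, chr10:77986947-78010083), stood at 67.0, 68.6 and 80.4 CPM in the DMSO libraries (replicates 1 to 3) and at 70.8, 72.0 and 55.8 CPM in the erastin libraries. The groups overlapped, and the log2 fold change was -0.12 (95% interval -0.36 to 0.12, edgeR adjusted p = 0.413). Pfkp, the platelet-type subunit (ENSMUSG00000021196.9, chr13:6579768-6648777), stood at 50.8, 49.1 and 51.9 CPM in the DMSO libraries (replicates 1 to 3) and at 60.8, 65.4 and 54.8 CPM in the erastin libraries. The erastin values lay above those of DMSO without overlap, with a log2 fold change of 0.25 (standard error 0.10; edgeR adjusted p = 0.0434). That call was lost when any 1 library other than erastin replicate 3 was left out (log2 fold changes of 0.19 to 0.27, edgeR adjusted p = 0.0528 to 0.179), and after the GC and length correction (log2 fold change 0.14, edgeR adjusted p = 0.266). Exons of Pfkp overlap those of Pitrm1 on the opposite strand, which was itself higher (120.1 ± 3.44 to 154 ± 3.02 CPM, SD, n = 3; edgeR adjusted p = 0.00118). Whether counting used the strand is not given in the sources used here, so reads of the shared stretch may stand under either gene. Pfkm, the muscle-type subunit, fell from 32.6 ± 4.72 CPM with DMSO to 23.1 ± 2.80 CPM (edgeR adjusted p = 0.00992). The Pfkp share of the 3 genes per kilobase went from 15.5% ± 0.617 to 21.1% ± 1.28 (SD, n = 3; exact two-sided permutation p = 0.1, the smallest possible).

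**Figure D2:**
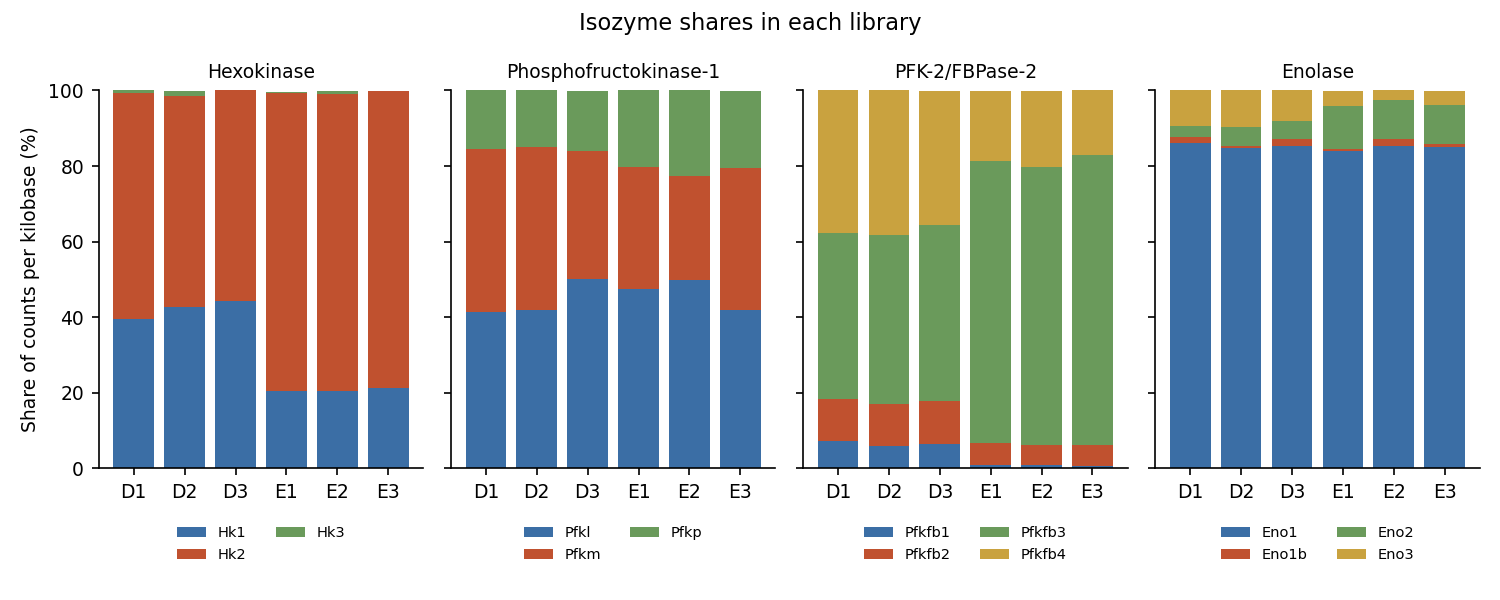
Share of each gene (%) in the summed counts per kilobase of merged exons of its enzyme, in DMSO libraries D1 to D3 and erastin libraries E1 to E3, for 4 enzymes; genes under 1% in every library are left out. The Hk2 and Pfkfb3 shares are larger in all erastin libraries than in any DMSO library, and Eno1 holds 85.4% of enolase in DMSO and 84.8% with erastin.

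Among the 10 genes, none of the enzymes from aldolase to pyruvate kinase passed as higher. Aldoa, which splits fructose 1,6-bisphosphate (ENSMUSG00000030695.9, chr7:126795234-126800751), stood at 634, 579.9 and 618 CPM in the DMSO libraries (replicates 1 to 3) and at 567, 657 and 496 CPM in the erastin libraries. The groups overlapped, with erastin replicate 2 the highest of all 6 libraries and erastin replicate 3 the lowest. The log2 fold change was -0.091 (95% interval -0.28 to 0.10, edgeR adjusted p = 0.446), and it was 0.0056 without erastin replicate 3 and 0.047 when GC content and transcript length were corrected for. Pgk1, the first ATP-forming enzyme (ENSMUSG00000062070.8, chrX:106187100-106203699), stood at 92.1, 82.9 and 89.3 CPM in the DMSO libraries (replicates 1 to 3) and at 75.8, 85.2 and 70.6 CPM in the erastin libraries. The ranges overlapped through erastin replicate 2, and the log2 fold change of -0.19 (95% interval -0.39 to 0.0072) did not pass (edgeR adjusted p = 0.113). With upper-quartile scaling it did pass (-0.24, edgeR adjusted p = 0.0458). Pkm, pyruvate kinase (ENSMUSG00000032294.12, chr9:59656368-59679375), stood at 1042, 953 and 979 CPM in the DMSO libraries (replicates 1 to 3) and at 881, 898 and 860.1 CPM in the erastin libraries. All erastin libraries lay below all DMSO libraries by a small margin, and the log2 fold change was -0.17 (SE 0.07, edgeR adjusted p = 0.0447). Leaving out any 1 of the 6 libraries ended that call (log2 fold changes of -0.20 to -0.14, edgeR adjusted p = 0.0547 to 0.131), and the log2 fold change was -0.042 after the GC and length correction. The M1 and M2 forms of pyruvate kinase come from 1 gene by splicing and are not separated in gene counts.

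The other enzymes of the pathway, with related enzymes such as Tigar and Pgam5, were taken as a list of 26 genes. Of these, 19 were tested, 4 were higher and 7 lower, with a median log2 fold change of -0.23. Over all genes tested, 21.6% were higher and 21.5% lower. Eno2, the neuron-type enolase, rose from 14.0 ± 2.61 CPM with DMSO to 31.2 ± 4.81 CPM (a log2 fold change of 1.15, edgeR adjusted p = 5.73e-05). Eno3, the muscle-type enolase, fell from 11.1 ± 1.94 CPM with DMSO to 3.80 ± 0.817 CPM (a log2 fold change of -1.54, edgeR adjusted p = 0.000161). Both are minor forms beside Eno1, which was added after its value was seen and did not pass (a log2 fold change of -0.20, edgeR adjusted p = 0.155). Tigar, a fructose-2,6-bisphosphatase and so an opponent of Pfkfb3, rose from 16.0 ± 3.03 CPM with DMSO to 26.3 ± 1.62 CPM (edgeR adjusted p = 0.00156). Aldoc, a minor aldolase, fell from 3.27 ± 1.01 CPM with DMSO to 1.08 ± 0.576 CPM (edgeR adjusted p = 0.0223). The remaining calls, named here after their values were seen, were Pgam1 (0.46) and Pgam5 (0.47, a mitochondrial phosphatase of that family) as higher and Gapdh (-0.35), Tpi1 (-0.23) and Bpgm (-0.58) as lower on the log2 scale, besides Pfkm and Pfkfb1 above. Gpi1, the enzyme between hexokinase and phosphofructokinase and likewise chosen afterwards, stood at 0.10 (95% interval -0.045 to 0.25) and did not pass. Pgk2, Pklr and Ldhc, isozymes of the members, had at most 1 read in a library and were not tested.

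**Figure D3:**
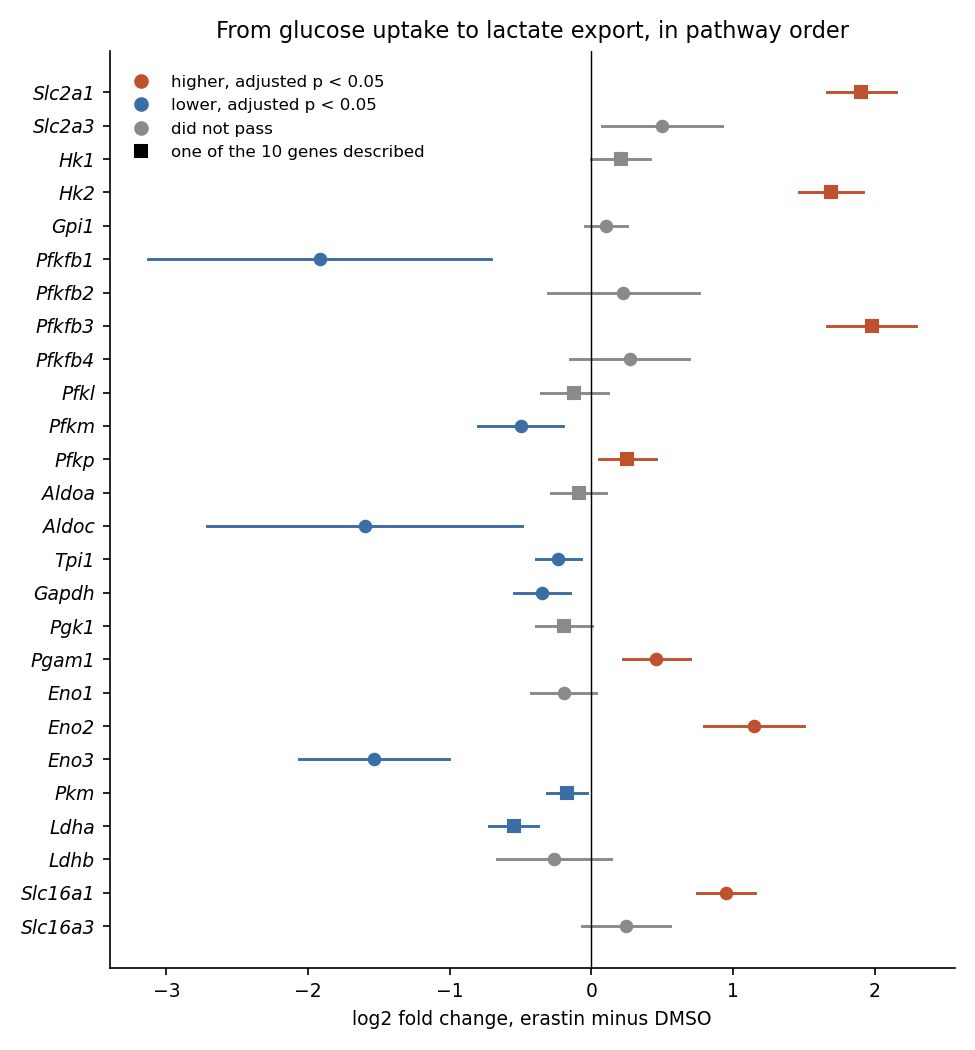
Log2 fold change (erastin minus DMSO, with 95% interval, n = 3 each) of genes from glucose uptake at the top to lactate export at the bottom, as squares for the 10 genes described and circles for related genes; colours give the edgeR call. Slc2a1, Hk2 and Pfkfb3 near the top stand at 1.91, 1.69 and 1.98, and Pkm and Ldha near the bottom at -0.17 and -0.55.

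Lactate dehydrogenase A was the member with a clear fall. Ldha (ENSMUSG00000063229.10, chr7:46841475-46855627) stood at 613, 528 and 547 CPM in the DMSO libraries (replicates 1 to 3) and at 394, 413 and 345 CPM in the erastin libraries. The highest erastin library was below the lowest DMSO library, and the log2 fold change was -0.55 (SE 0.08, edgeR adjusted p = 7.79e-05), with a range of -0.60 to -0.48 over the alternatives. Ldhb, whose subunit favours the reverse reaction, stood at 20.1 ± 3.13 CPM with DMSO against 16.7 ± 4.29 CPM with erastin (edgeR adjusted p = 0.284) and did not pass. Slc2a1 counts divided by Ldha counts, a ratio chosen after the values were seen, gave 0.198, 0.204 and 0.173 in the DMSO libraries and 1.15, 1.05 and 0.950 in the erastin libraries, replicates 1 to 3 each. The transporter thus had far fewer reads than Ldha in DMSO and about as many with erastin.

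Carriers of lactate and pyruvate were mixed: of 7 genes tested, 1 was higher and 1 lower, beside 21.6% and 21.5% of all genes tested. Slc16a1, the gene of the monocarboxylate transporter MCT1, rose from 46.1 ± 3.22 CPM with DMSO to 89.0 ± 8.22 CPM (a log2 fold change of 0.95, SE 0.10, edgeR adjusted p = 1.9e-06). Emb, embigin, a chaperone of monocarboxylate transporters, fell from 53.6 ± 4.98 CPM with DMSO to 30.9 ± 1.32 CPM (edgeR adjusted p = 2.37e-05). Slc16a7, the gene of MCT2, stood at 2.12 ± 0.578 CPM with DMSO against 1.05 ± 0.708 CPM with erastin (edgeR adjusted p = 0.196) and did not pass. The complex that takes pyruvate into the citric acid cycle, with its kinases and phosphatases, had 4 of 12 genes higher and 2 lower. Calls in either direction made up 43.1% of all genes tested, so this count is near the background. Dld, the shared dihydrolipoamide dehydrogenase subunit, rose from 56.1 ± 5.21 CPM with DMSO to 109 ± 4.94 CPM (edgeR adjusted p = 1.03e-06). Of the enzymes that set the activity of the complex, the kinase gene Pdk3 fell from 48.8 ± 0.939 CPM with DMSO to 32.5 ± 3.77 CPM and the phosphatase gene Pdp1 from 25.3 ± 4.13 CPM with DMSO to 13.1 ± 1.80 CPM (edgeR adjusted p = 0.000509 and 0.000289). Another kinase gene, Pdk1, named after its value was seen, rose from 21.6 ± 1.44 CPM with DMSO to 29.0 ± 3.00 CPM (edgeR adjusted p = 0.015).

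Known regulators of these genes formed a list of 16, of which 14 were tested, 6 were higher and 3 lower. The shares over all genes tested were 21.6% higher and 21.5% lower. Egln3, a HIF prolyl hydroxylase that is itself a target of HIF, rose from 9.76 ± 2.61 CPM with DMSO to 73.3 ± 12.0 CPM (a log2 fold change of 2.91, SE 0.17, edgeR adjusted p = 8.87e-09). Myc, a transcription factor with glycolytic target genes, rose from 46.7 ± 3.95 CPM with DMSO to 131 ± 15.0 CPM (a log2 fold change of 1.49, edgeR adjusted p = 4.24e-08). Txnip, an arrestin that takes GLUT1 off the cell surface and is induced by glucose, fell from 114 ± 7.79 CPM with DMSO to 69.2 ± 3.98 CPM (a log2 fold change of -0.73, edgeR adjusted p = 9.52e-06). Hif1a, the gene of a HIF subunit, was named after its value was seen because the HIF core sequence was matched above. It fell from 465 ± 38.3 CPM with DMSO to 345 ± 41.2 CPM (edgeR adjusted p = 0.00128). Epas1, the gene of HIF-2alpha, fell too (-0.83 on the log2 scale), while Egln1 (0.67), the AMP-activated kinase genes Prkaa1 (0.45) and Prkaa2 (1.23) and Arrdc4 (0.67), a relative of Txnip, rose; these 5 complete the calls of the list and were named after their values were seen. The abundance of HIF-1alpha is set mainly by protein stability, which RNA counts do not measure. The part of HIF or of the other regulators in the values of the 10 genes was not tested.

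**Figure D4:**
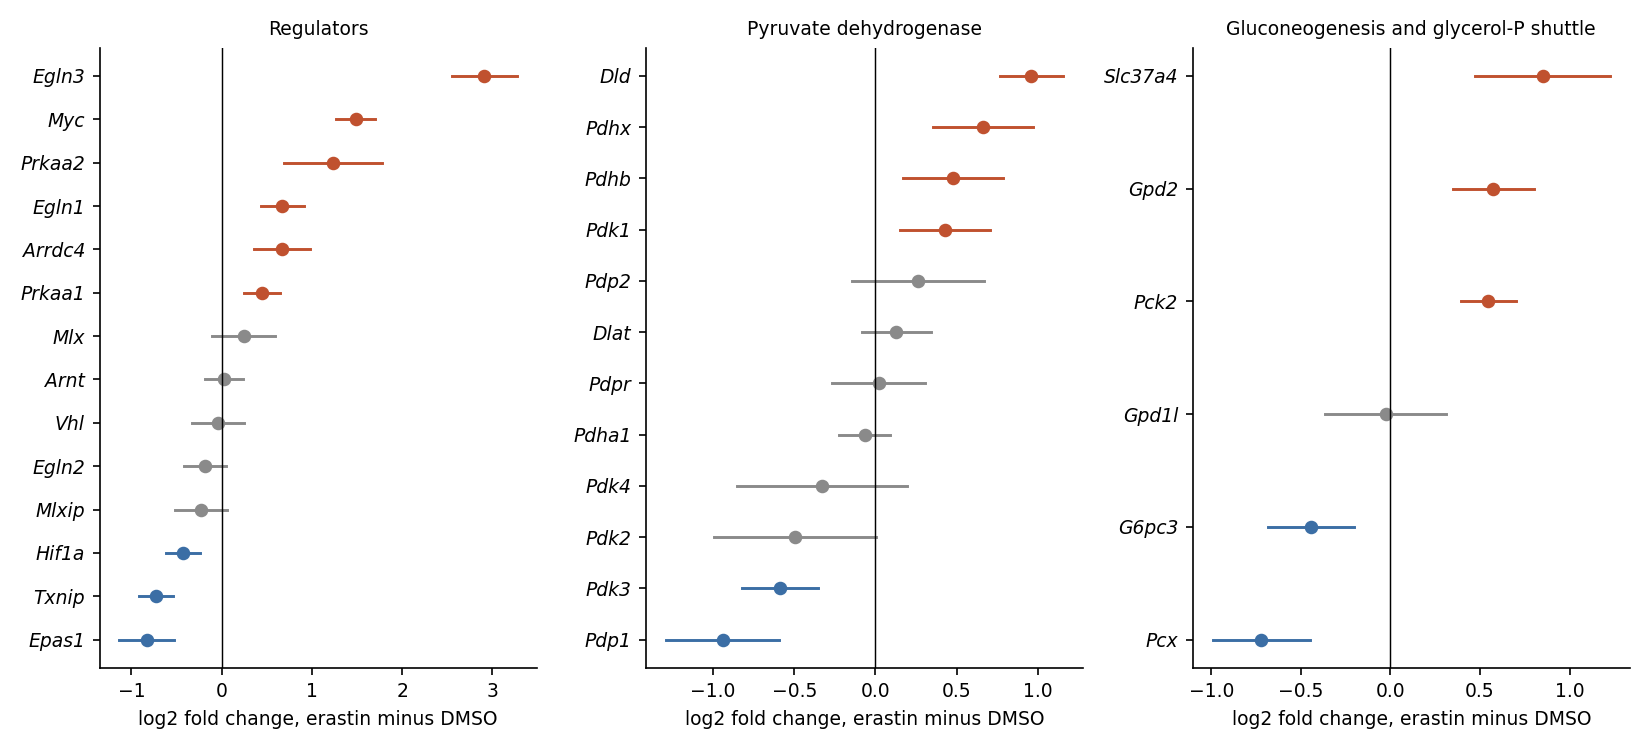
Log2 fold change (erastin minus DMSO, with 95% interval, n = 3 each) of the tested genes of 3 lists around glycolysis, ordered by value; red passed as higher, blue as lower and grey did not pass (edgeR adjusted p under 0.05). Egln3 stands at 2.91 and Myc at 1.49 among the regulators.

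Compared per kilobase of merged exons, the 10 genes spanned a wide range of levels in DMSO. The most abundant were Aldoa at 209.7 ± 9.48 and Pkm at 198 ± 9.16 CPM per kilobase, then Ldha at 169.9 ± 13.5 (SD, n = 3 each). The ranges of Aldoa and Pkm overlapped, with Aldoa the higher in each DMSO library. Pgk1 (39.3 ± 2.11), Slc2a1 (30.8 ± 3.82) and Hk2 (15.7 ± 1.26) followed in that order. Hk1 (11.5 ± 0.234) and Pfkl (10.8 ± 1.10) did not differ beyond their spread, nor did Pfkp (3.77 ± 0.107) and Pfkfb3 (3.59 ± 0.867) at the bottom. With erastin, Slc2a1 at 115 ± 19.0 stood beside Ldha at 116 ± 10.5, Hk2 at 50.7 ± 8.10 had passed Pgk1 at 34.4 ± 3.30, and Pfkfb3 at 14.1 ± 2.03 stood beside Hk1 at 13.3 ± 1.83. Pfkp, at 4.50 ± 0.397, was now the lowest. With the longest transcript as length, the order in DMSO differed in that Pkm led Aldoa and that Hk1 and Pfkl stood above Hk2. With erastin that length put Slc2a1 (124) well below Ldha (212) and Pfkfb3 (22.2) below Hk1 (26.6 CPM per kilobase), so these neighbours depend on the length used.

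Summed over the isozymes of a step, on the same scale, the hexokinase genes went from 27.4 ± 1.15 to 64.5 ± 10.2 CPM per kilobase (SD, n = 3), a ratio of 2.35. The PFK-2/FBPase-2 genes went from 7.96 ± 1.71 to 18.8 ± 3.06 and the 9 SLC2 genes from 46.4 ± 4.49 to 129 ± 19.6 (SD, n = 3). The ratios of the erastin to the DMSO mean were under 1 for the other sums, with values of 0.877 for phosphofructokinase-1, 0.936 for aldolase, 0.877 for phosphoglycerate kinase, 0.880 for enolase, 0.887 for pyruvate kinase and 0.693 for lactate dehydrogenase. The groups overlapped for aldolase, phosphoglycerate kinase and enolase (exact two-sided permutation p = 0.6, 0.2 and 0.4). The other 6 sums did not overlap and had the smallest possible p of 0.1. No sums were made for the steps of Gpi1, Tpi1, Gapdh and phosphoglycerate mutase. On the same scale, Gpi1 went from 39.5 ± 0.468 to 42.4 ± 2.07 and Pgam1 from 20.9 ± 3.07 to 28.7 ± 1.08. Tpi1 went from 75.7 ± 1.6 to 64.4 ± 4.43 and Gapdh from 62.5 ± 6.05 to 49.1 ± 5.16.

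The 10 genes also shared an order within the erastin group. In all 10 of them erastin replicate 3 was the lowest of the 3 erastin libraries, which held for 36.8% of all genes tested. The same library was the lowest for all 7 leukocyte markers, 10 of the 19 other enzymes tested, 8 of 14 regulators and 4 of 7 carriers. It was the lowest for 3 of 8 other transporters, 3 of 12 pyruvate dehydrogenase genes and 1 of 6 genes of gluconeogenesis and the shuttle. Of the other markers tested, this held for 2 of 12 fibroblast, 0 of 4 endothelial, 2 of 2 skeletal muscle, 1 of 2 neural and 0 of 1 epithelial markers. The part of that library's makeup in these values was not tested. Without erastin replicate 3 the log2 fold changes were 2.04 for Slc2a1, 1.82 for Hk2, 2.10 for Pfkfb3 and -0.48 for Ldha (edgeR adjusted p = 2.09e-09, 1.98e-09, 8.25e-08 and 0.000292). Leaving out the lowest erastin library favours larger rises, so the values of Slc2a1, Hk2 and Pfkfb3 are no check of those calls. The fall of Ldha could become smaller in this fit and still passed. Of the 10 genes, only Pgk1 and Ldha had near-identical stretches (at least 95% identity over 100 bases) in other rows of the table, and those rows held at most 2.83% and 0.136% of the gene's own count.

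**Figure D5:**
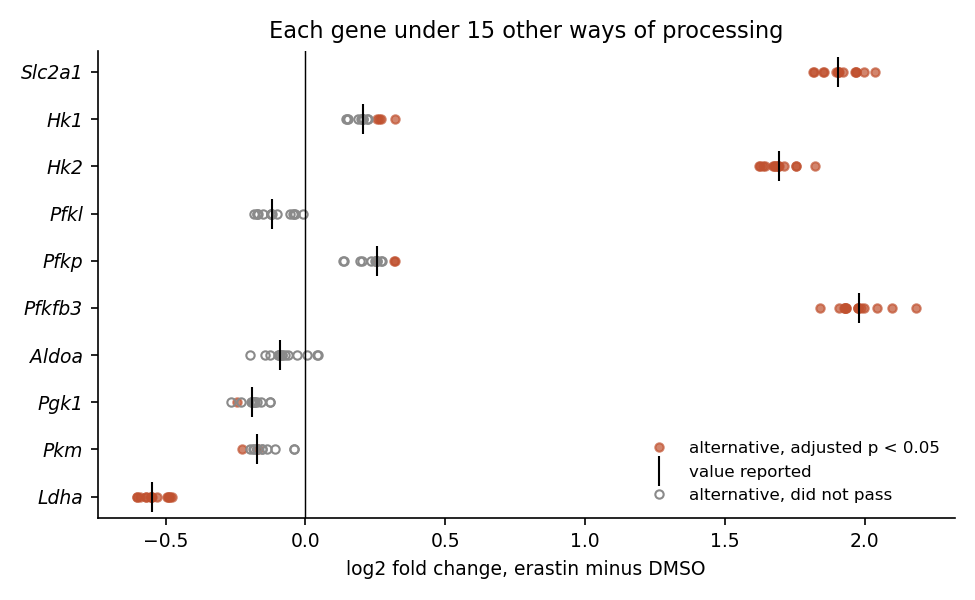
Log2 fold change of each gene as reported (black line) and under 15 other ways of processing (circles; filled where the adjusted p is under 0.05), including the omission of each library in turn. The circles of Slc2a1, Hk2, Pfkfb3 and Ldha are all filled, while those of Hk1, Pfkp, Pgk1 and Pkm are mixed and those of Pfkl and Aldoa all open.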

How the data were processed

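RNA counts were measured in 6 ribosome-depleted total RNA libraries sequenced on an Ion Proton, per the labels' protocols. The authors deposited raw read counts per gene, without normalization. The submitters' processing notes name HTSeq 0.9.1, SAMtools and build mm10; aligner, annotation and strand setting are not given in the sources used here. Identifiers were matched without version to GENCODE M21 (GRCm38, the assembly of mm10); 42462 of 43346 had a symbol, and 0 columns were left unused. Groups came from the sample titles.

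Counts were tested with edgeR 4.0.16 in R 4.3.3 (filterByExpr with a minimum count of 10, TMM factors, quasi-likelihood test, treatment as the only term), with a Benjamini-Hochberg threshold of 0.05 over all 14000 genes. CPM use the TMM factors; levels between genes are CPM per kilobase of merged exons. SE and 95% intervals come from the fitted weights and moderated degrees of freedom. Depth put 3 counts at 0.140 to 0.234 CPM, counting error only. The script was tested on simulated counts. Near-identical transcripts were sought with blastn 2.17.0. Alternatives were other scalings and filters, the replicate block, DESeq2 1.42.0, leaving out each library, and a per-library offset for GC content and transcript length (mgcv 1.9.3).

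Named are the 10 genes and, of 6 related lists, the 3 genes with the smallest p, the calls whose log2 change was 1 or more in size (enzyme, transporter and lactate lists) and the tested isozymes of the 10; others are named as chosen after their values were seen. The members and lists were chosen with earlier results of these data known.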

Additional observations from a re-analysis of the deposited data

How the results depend on the processing

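Slc2a1, Hk2, Pfkfb3 and Ldha kept their direction and passed in all 15 alternatives, with log2 fold changes of 1.82 to 2.04, 1.62 to 1.82, 1.84 to 2.18 and -0.60 to -0.48. Pkm was lost from the 2 genes lower with erastin, leaving 1, with scaling by total count only, with no filter on low counts, when GC content and length were corrected for (both with and without a block), and in each fit that left out 1 library (1 to 1). With the replicate block 4 of the 10 genes passed, 3 higher and 1 lower, as Pfkp and Pkm were lost at log2 fold changes of 0.25 and -0.17 (edgeR adjusted p = 0.0647 and 0.0607). Equally numbered libraries did not deviate together (correlations 0.04, 0.0038, -0.0055). With 3 libraries per group, such values cannot exclude that equal numbers stand for a shared preparation. Of all genes tested, 5882 passed with the block. Members passing numbered 4 to 6 over the alternatives. Aldoa, reported at -0.091, was 0.047 and 0.041 with GC content and length corrected, lacking and including the replicate block, and ran from -0.20 to 0.0056 over the fits that left out 1 library. The Hk2 share rose by 21.6 percentage points as reported, 24.9 with the longest transcript as length and 24.0 on raw counts; the Pfkp share by 5.58, and 7.73 on raw counts, which by construction weight long genes more. The cause of the other movements was not tested. Each of the 10 genes had at least 333 reads in every library.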

Other observations

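Genes that run against or beside glycolysis were mixed. Of the 11 genes of gluconeogenesis and the glycerol phosphate shuttle 6 were tested, 3 were higher and 2 lower with erastin (edgeR adjusted p under 0.05). Among all genes tested the shares were 21.6% and 21.5%. Pck2, the mitochondrial phosphoenolpyruvate carboxykinase, rose from 202 ± 8.38 CPM with DMSO to 295 ± 12.1 CPM (edgeR adjusted p = 2.17e-05). Pcx, the pyruvate carboxylase that feeds oxaloacetate to it, fell from 38.7 ± 5.68 CPM with DMSO to 23.5 ± 1.20 CPM (edgeR adjusted p = 0.000319). Gpd2, the mitochondrial glycerol-3-phosphate dehydrogenase, which passes electrons from glycolytic NADH to the respiratory chain, rose from 43.3 ± 5.47 CPM with DMSO to 64.5 ± 3.83 CPM (edgeR adjusted p = 0.000464). Pck1, Fbp1, Fbp2 and G6pc, further genes of gluconeogenesis, had at most 1 read in a library.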
